A study of Caenorhabditis elegans with 2 samples.

Results

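LIN-35 peaks at genes for small non-coding RNAs were chosen by position alone. A peak belonged to the set when its summit lay within 500 bp of the annotated 5′ end of a tRNA, snoRNA or snRNA gene on a nuclear chromosome. Of the 3838 peaks that passed the authors' test of reproducibility between replicates (the IDR list), 271 did so, or 7.06%, while the windows searched cover 0.982% of the nuclear genome. The nearest such gene was a tRNA gene for 155 of these peaks, a snoRNA gene for 100 and an snRNA gene for 16.

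The study mapped LIN-35 on DNA by chromatin immunoprecipitation with sequencing (ChIP-seq) in whole Caenorhabditis elegans larvae of the first stage (L1), of mixed sex. The single group was strain YL409, with unc-119(ed3) and the transgene vrIs60, in which the lin-35 promoter drives a LIN-35:GFP:FLAG fusion beside a rescuing unc-119(+). Per the labels, there were 2 biological replicates and the DNA was in fragments of 150 to 350 bp. The labels also name lin-35 as the antibody target; no untagged strain, other stage or input was analysed here, so nothing below compares conditions, and no test across samples was possible. Each peak has a position and a signal value given by the authors, which here only ranks and describes peaks within 1 list. Read depth is unknown.

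LIN-35 is the only Rb-family pocket protein of the worm and acts in the DREAM complex, which represses cell cycle genes. Transfer RNA genes are copied by RNA polymerase III from promoter elements inside the gene, box A near its start and box B further in, where the factor TFIIIC binds. Genes for snRNAs, and for the spliced leader RNAs that are joined to the start of many worm mRNAs, use instead an element upstream of the start that is bound by the SNAP complex. Small nucleolar RNAs guide the modification of ribosomal RNA, and in the worm some lie in introns of other genes while some have promoters of their own. In mammals, Rb-family proteins are known to repress RNA polymerase III.

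Stretches of 30 bases (ce11, 5′ to 3′ on the strand of the gene) are shown because the summits at snRNA and snoRNA genes lay close to them. In the first 4, upstream of snRNA genes, and the next 3, upstream of snoRNA genes, the capitals mark TGTCNG, where N is any base; these genes and letters were chosen after the sequences were seen. The gene smy-2 encodes an SmY RNA and counts as a snoRNA gene only by its biotype in the annotation, which types smy-1 as snRNA.
sls-2.8: cggaacccggcaaaTGTCCGtccacagcag
sls-2.1: cttgcctcgaaagaTGTCTGtacacacatt
C52E4.8: cgaaagccgcgattTGTCGGttgctgtgtt
W05B2.8: cggaacccatgacaTGTCTGctacactcct
Y53F4B.47: cggaacccgtcactTGTCTGctgcggcgaa
smy-2: cggaacccggcagaTGTCGGttcaaacggg
Y55F3BR.9: cggaactcgggaggTGTCGGccgccgcgcc
They lie at chrIII:12250403-12250432 (plus strand), chrII:5844803-5844832 (plus), chrV:11980056-11980085 (plus), chrIII:10989609-10989638 (plus), chrII:15025944-15025973 (minus), chrIV:9511501-9511530 (minus) and chrIV:867165-867194 (minus). The stretch at sls-2.8 begins 62 bp upstream of the gene and the LIN-35 summit lay 65 bp upstream. At C52E4.8 the stretch also begins 62 bp upstream and the summit lay 58 bp upstream, and at smy-2 the values were 64 and 49 bp.

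In the next stretches the capitals mark the box B letters GTTCNANNC, which lie upstream of the annotated start in the first pair, snoRNA genes, and inside the gene in the second pair, tRNA genes.
M106.6: atcgctcgcggGTTCGAGGCcggcagcatg
F30H5.4: gcgcgaccgttGTTCGACCCccacgcagtg
C43G2.t1: ggagggcgcagGTTCGAACCctgcggacgg
W09D6.t1: agaggtcccggGTTCAATCCccggttcggc
They lie at chrII:10840289-10840318, chrIII:502769-502798, chrIV:6556870-6556899 and chrIII:11067067-11067096, each on the plus strand. At M106.6 the stretch begins 28 bp upstream of the snoRNA start and the summit lay 55 bp upstream. At C43G2.t1, a tRNA-Leu gene, the stretch covers bases 53 to 82 of the gene and the summit lay 14 bp inside it. At W09D6.t1, a tRNA-Pro gene, the stretch covers bases 41 to 70 and the summit lay 64 bp upstream of the gene. That summit is nearer to the start of W09D6.t2, and its peak ends at chrIII:11067062, before the stretch begins.

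Among 612 tRNA genes, 173 had an IDR summit 500 bp or less from the 5′ end, or 28.3% (exact binomial 95% interval 24.7 to 32.0%). So did 100 of 346 snoRNA genes, or 28.9% (24.2 to 34.0%), and 18 of 129 snRNA genes, or 14% (8.48 to 21.2%). The background was 13.6% of 19973 protein-coding genes and 8.69% of all nuclear genes of any kind. The order of the kinds depended on peak strength. With only the stronger 1919 IDR peaks, the share was 7.19% of tRNA genes, 17.9% of snoRNA genes and 9.30% of snRNA genes. This put tRNA genes lowest. No background share was counted for the stronger peaks, and the 13.6% and 8.69% above use the whole IDR list. Whether the shares from the stronger peaks lie above their own background was therefore not tested. These intervals cover counting error only, and neighbouring genes can share a peak: 249 of the 271 peaks had 1 such 5′ end in reach, 20 had 2 and 2 had 3.

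The snoRNA and snRNA shares barely differed between the replicates, while the tRNA share did. When the 3838 strongest nuclear peaks of replicate 1 were used alone, 17.3% of tRNA genes had a summit, against 29.2% with those of replicate 2 alone. The tRNA count was 106 genes in replicate 1, 179 in replicate 2 and 90 in both. For snoRNA genes the shares were 27.7% and 29.8%, and for snRNA genes 14.7% and 13.2%. The protein-coding background was 13.1% in replicate 1 and 13.6% in replicate 2, so the tRNA share of replicate 1 lay nearer to the background than that of replicate 2.

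**Figure D1:**
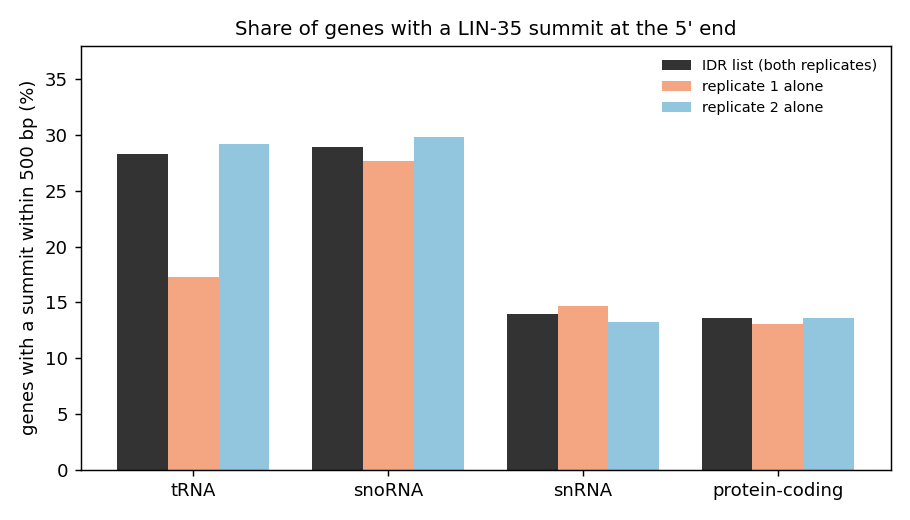
Percent of genes of each kind with a LIN-35 summit within 500 bp of the 5′ end, in the IDR list and in the strongest 3838 peaks of each replicate alone; bars start at 0. tRNA genes stand at 17.3% in replicate 1 and 29.2% in replicate 2, while the other kinds differ little between the replicates.

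Part of this count lay at promoters shared with protein-coding genes. Leaving out peaks with a protein-coding 5′ end within 500 bp kept 140 tRNA genes (22.9%), 69 snoRNA genes (19.9%) and 15 snRNA genes (11.6%). No background share was counted for the peaks left, and the 13.6% and 8.69% above use the whole IDR list. Whether these shares lie above a background of their own was therefore not tested. Of the 271 peaks, 64 (23.6%) had such a start, compared with 55.7% of all IDR peaks. The nearest 5′ end of any gene was that of a tRNA, snoRNA or snRNA gene for 232 peaks (85.6%). By place, 121 summits lay in introns of protein-coding genes, 4 in exons and 146 between protein-coding genes.

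Genes without an IDR summit could still have a weaker peak. In the list pooled over both replicates, which holds 30000 peaks, 66.8% of tRNA genes, 59.8% of snoRNA genes and 34.9% of snRNA genes had a summit within 500 bp, the genes with an IDR summit included. The protein-coding background in that list was 37.1%, so the snRNA share lay near it. A weaker pooled peak alone lay near 236 tRNA genes, 107 snoRNA genes and 27 snRNA genes. No pooled peak lay near 203 tRNA genes, 139 snoRNA genes and 84 snRNA genes.

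Summits at tRNA genes sat at a different place from those at snoRNA and snRNA genes. The tRNA summits centred on the start itself: the median lay 4 bp upstream, with quartiles 26.0 bp upstream and 25.5 bp downstream, and 57 of 155 summits (36.8%) lay inside the tRNA gene. At snoRNA genes the median lay 51.0 bp upstream, with quartiles of 82.5 and 29.0 bp upstream, and 3 of 100 summits lay inside the gene. At snRNA genes all 16 summits lay upstream, with a median of 58.5 bp and quartiles of 74.2 and 46.5 bp. These quartiles overlap those at snoRNA genes, so snoRNA and snRNA summits are not put in order. At protein-coding genes the median was 153 bp upstream of the annotated 5′ end. Whether annotated ends mark the start of transcription equally well in each kind of gene was not checked.

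tRNA summits lay nearest to the start in each replicate alone as well. The median was 15 bp upstream at tRNA genes, 57.5 bp at snoRNA genes and 65.5 bp at snRNA genes in replicate 1. In replicate 2 it was 3.00, 54.0 and 55.0 bp. The protein-coding median was 153 bp in replicate 1 and 152 bp in replicate 2. The snoRNA and snRNA medians lay close together, most so in replicate 2, and cannot be put in order.

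**Figure D2:**
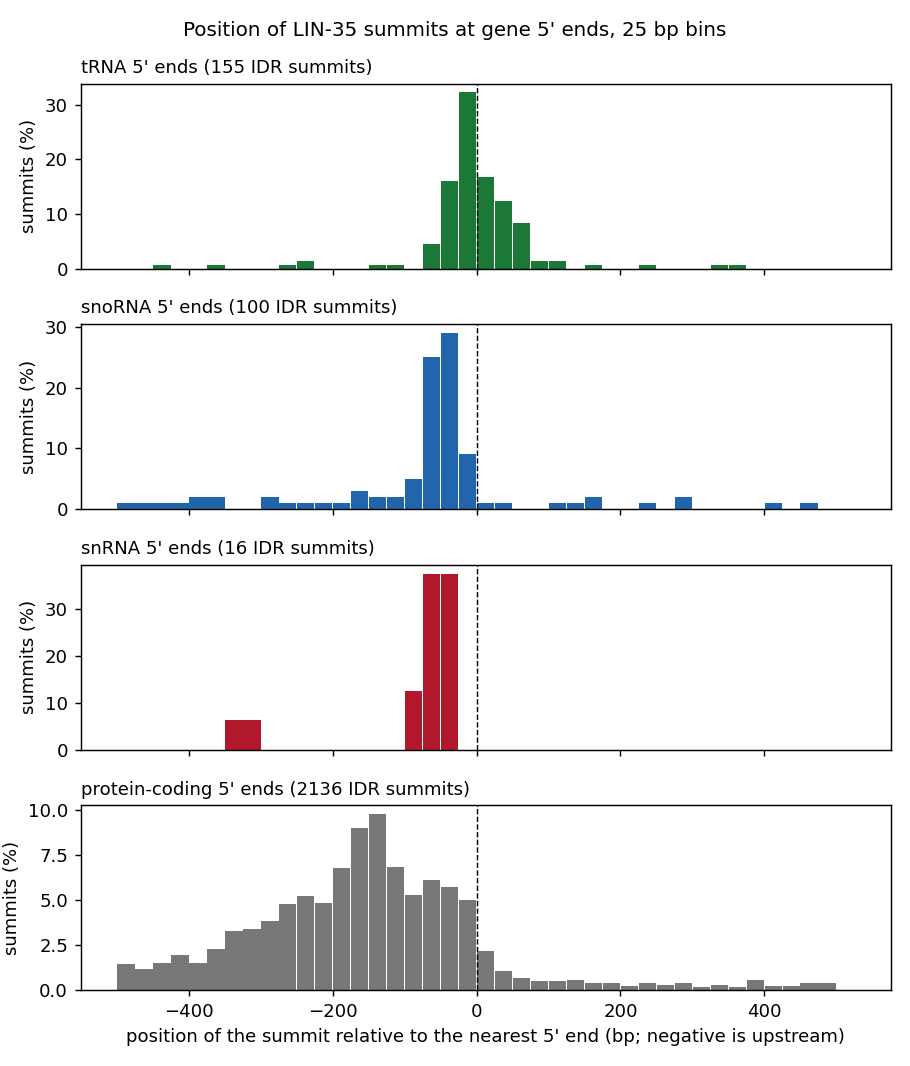
Percent of IDR summits in 25 bp bins around the nearest 5′ end, for tRNA, snoRNA, snRNA and protein-coding genes; negative positions are upstream and the vertical scales differ. tRNA summits straddle the start (median 4 bp upstream), snoRNA and snRNA summits gather upstream (51.0 and 58.5 bp), and protein-coding summits are spread wide.

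Counted within 100 bp of the 5′ end, 146 tRNA genes (23.9%), 70 snoRNA genes (20.2%) and 16 snRNA genes (12.4%) had a summit. The background in that window was 3.02% of protein-coding genes, whose summits tend to lie further upstream of the annotated 5′ end. This background depends on where the annotation places those ends, so it may not be like for like. Few summits lay near the 500 bp limit: 3 at 451 to 500 bp, each with a protein-coding start also in reach, and 8 just outside, at 501 to 550 bp.

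Most of these peaks were weak or middling ones within the IDR list. Their median signal was 110, at rank 2172 of 3838, where the median of all IDR peaks was 125. Peaks at tRNA genes had a median of 91.0 (range 56.1 to 374), at snoRNA genes 143 (57.5 to 1295) and at snRNA genes 183 (56.6 to 905). IDR peaks with a protein-coding start and none of these genes in reach had a median of 166, and the 1495 IDR peaks with neither had 98.4. The 207 peaks of the set without a protein-coding start had a median of 105. At snoRNA genes the median was 212 for the 30 peaks that also had a protein-coding start and 125 for the other 70; at tRNA genes it was 92.1 and 90.2.

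**Figure D3:**
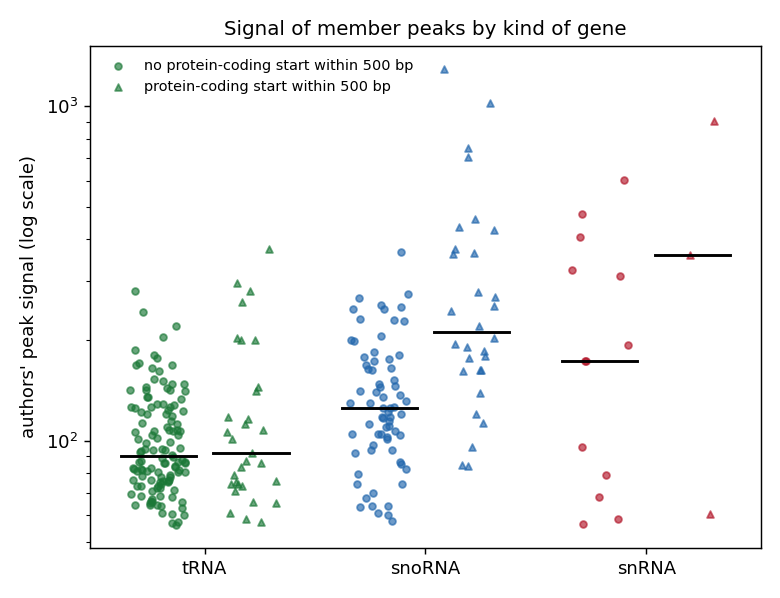
Authors' peak signal (log scale) of each of the 271 peaks by kind of gene, with circles for peaks without and triangles for peaks with a protein-coding 5′ end within 500 bp; black lines are medians. The strongest snoRNA peaks are triangles, tRNA peaks have close medians either way (90.2 and 92.1), and sls-2 genes hold the strongest snRNA peaks without a protein-coding start.

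Spliced leader genes held the strongest snRNA peaks. SL2 RNA, which the sls-2 genes encode, is the leader joined to mRNAs from downstream genes of operons. At sls-2.8 the signal was 905 in the IDR list, at rank 176, and the peak stood at rank 195 in replicate 1 and 163 in replicate 2. The starts of tim-1, the worm Timeless gene, and Y75B8A.23 were also within 500 bp of that summit. At sls-2.4 the signal was 604, with rank 463 in replicate 1 and 277 in replicate 2. At sls-2.1 it was 476 (ranks 355 and 480) and at sls-2.2 it was 406 (ranks 665 and 477). No protein-coding start lay within 500 bp of the last 3 summits, which were 59, 81 and 32 bp upstream of their genes.

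Of the 18 sls-2 genes, 8 had an IDR summit and 14 had a pooled peak. Beside this, 14% of all snRNA genes had an IDR summit and 34.9% a pooled peak. For protein-coding genes the shares were 13.6% and 37.1%. With each replicate alone, 10 and 7 of the sls-2 genes had a summit. The weakest of the 8 were sls-2.3 (signal 67.9), sls-2.6 (60.4) and sls-2.5 (56.6); the peak at sls-2.3 stood at rank 17047 in replicate 1 and 2565 in replicate 2. At sls-2.9 the summit was shared with the tRNA-Lys gene M01E5.t1 (signal 104). The sls-1 genes encode SL1 RNA, the leader used at most trans-spliced genes. None of the 12 sls-1 genes had a summit within 500 bp in the IDR or the pooled list. All 12 lie between positions 17118154 and 17132107 of chromosome V, so they are neighbours and not independent counts. Up to 10 of them share 1 identical sequence, and no source used here says how reads from identical copies were placed; whether this bears on the absent peaks was not tested.

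Other snRNA genes with strong peaks were C52E4.8 (signal 359, ranks 965 and 574 in the replicates), F38E11.10 (325, ranks 640 and 676) and W05B2.8 (310, ranks 1003 and 578). The summit at C52E4.8 lay 58 bp from it and also in reach of snr-4, which encodes a core Sm protein of the spliceosomal snRNPs. The 2 U1 snRNA genes known from suppressor genetics, sup-6 and sup-39, had peaks of 194 and 173, with summits 47 and 38 bp upstream. The annotation places a 22 bp record, mir-1831, inside sup-39 and types it as snRNA, so 1 peak counts for both records. Of 12 genes for SmY RNAs, small RNAs bound by Sm proteins and linked to trans-splicing, smy-1 and smy-2 had a summit and shared 1 peak (signal 232). Beside this count stand 14% of all snRNA genes and 13.6% of protein-coding genes. With 1 shared peak, the SmY genes cannot be set apart from these shares. The genes named in this paragraph other than C52E4.8 were named after their values were seen.

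Each of the 8 peaks at snoRNA genes among the 12 strongest of the set also had a protein-coding start within 500 bp. The strongest of all 271, at F54E7.10, had a signal of 1295 (rank 78; rank 101 in replicate 1 and 69 in replicate 2), with its summit 243 bp upstream of the snoRNA start and within 500 bp of rps-12, a ribosomal protein gene, and ska-3. At F09G2.14 the signal was 1022 (ranks 159 and 135), with F09G2.2 in reach. At Y24D9A.9 it was 749 (ranks 266 and 225), with rpl-7A, another ribosomal protein gene, and set-21 in reach. At Y53F4B.47 it was 707 (ranks 254 and 262), with cmtr-1, a cap methyltransferase gene, in reach. For these and the next 4 peaks the signal of the snoRNA gene and that of the protein-coding gene cannot be told apart.

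A further such peak lay at K07C5.11, which lies in an intron of nol-56, the gene of a core protein of box C/D snoRNPs; its peak had a signal of 460 (ranks 516 and 440). At H06I04.9 the signal was 437 (ranks 525 and 461), near ubl-1, which encodes a ubiquitin-like protein fused to a ribosomal protein. At D1007.20 it was 428 (ranks 735 and 483), near rps-10 and rpl-24.1, and at F39B2.14 it was 375 (ranks 542 and 581), near rps-26 and tmem-107. In all, 8 of the 12 strongest peaks of the set were nearest to a snoRNA gene and 4 to an sls-2 gene.

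Host genes were compared next. Of 130 snoRNA genes outside protein-coding genes, 49 (37.7%) had a summit, against 45 of 169 in introns (26.6%) and 6 of 47 that overlapped an exon (12.8%). For tRNA genes the shares were 29.3% in introns and 26.7% outside protein-coding genes. Only 7 tRNA genes overlapped an exon, and 4 of them had a summit (57.1%), so the exon class was not low there. For snRNA genes the shares were 16.4% in introns, 13.6% outside and 0 of 8 at an exon. The replicates alone gave snoRNA shares of 33.8% in replicate 1 and 40% in replicate 2 outside genes, and 26.6% in both for introns. Peaks with a protein-coding start in reach were not set aside in these shares. Some intronic snoRNA genes, F54E7.10 and K07C5.11 among them, were counted through a summit outside the host gene and near its start. How far such peaks raise the intron share was not counted.

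The strongest peaks at tRNA genes were well below those at snoRNA genes. At Y38E10A.t1, a tRNA-Ala gene, a peak 235 bp upstream had a signal of 374 (ranks 749 and 552 in the replicates) with Y38E10A.22 in reach. A second peak lay 333 bp downstream of its start, with a signal of 297 (ranks 635 and 855) and Y38E10A.24 in reach. At C28G1.t1 (tRNA-Glu) the signal was 280 (ranks 732 and 869), near sec-15, an exocyst gene, and C28G1.2. At F58D5.t1 (tRNA-Val) it was 280 (ranks 695 and 950), with the summit 440 bp upstream. Only the last 2 of the top 5 genes had a summit near the start itself: C43G2.t1 (tRNA-Leu, signal 260, ranks 971 and 906, 14 bp inside) and T22A3.t1 (tRNA-Gly, 243, ranks 1680 and 782, 22 bp upstream).

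Every amino acid was represented among the bound tRNA genes. Product names were available for 607 of the 612 genes. Among amino acids with more than 1 gene, the share with a summit ran from 3 of 19 genes for tyrosine (15.8%), 2 of 12 for tryptophan (16.7%) and 5 of 29 for isoleucine (17.2%) to 15 of 39 for leucine (38.5%) and 6 of 14 for phenylalanine (42.9%). Each amino acid has few genes, and whether any of these shares differ beyond counting error was not tested. The 2 tryptophan genes were sup-5, the gene of an amber suppressor tRNA (signal 142), and rtw-6 (68.2), and the single selenocysteine tRNA gene, K11H12.t1, had a peak of 151; these 3 were named after their values were seen.

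**Figure D4:**
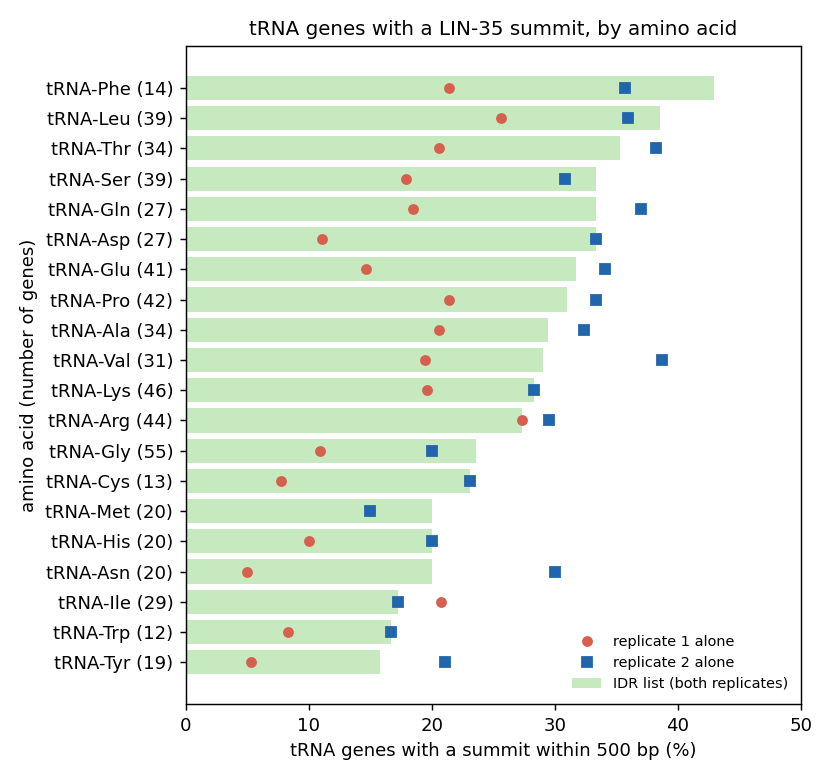
Percent of tRNA genes with a LIN-35 summit within 500 bp, by amino acid (number of genes in brackets), in the IDR list (bars) and in the strongest 3838 peaks of each replicate alone (points); selenocysteine, with 1 gene, is left out, and for methionine the points coincide at 15%. Replicate 1 lies below replicate 2 for every amino acid but isoleucine and methionine.

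Many tRNA genes are exact copies of each other. A summit lay near 146 of 469 genes with at least 1 identical copy (31.1%) and near 27 of 143 with none (18.9%). In replicate 1 alone the shares were 18.1% and 14.7%, and in replicate 2 alone 32.6% and 18.2%. Whether the placing of reads from copies moved these shares was not tested.

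By chromosome, III had the highest tRNA share, with 32 of 64 genes. The X holds 276 of the 612 tRNA genes (45.1%), and 60 of them had a summit (21.7%). The shares on III were 23.4% in replicate 1 and 48.4% in replicate 2, and on the X 16.3% and 22.5%. In replicate 1 the III share lay close to those of I (21.2%), II (21.1%) and IV (19.7%). Among all IDR peaks, III also held the most (20.3%) and the X the fewest (12.6%). No share of all genes was counted by chromosome, so these values are not shown to be particular to such genes. For snoRNA genes the X stood lowest, with 1 of 33 genes (3.03%), D2021.6, whose peak also lay near sdha-1, and 6.06% in each replicate alone; other chromosomes ranged from 22.2 to 36.4%.

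Ranks in the replicate lists were least alike for tRNA genes. A peak overlapped by at least 1 bp in both replicate lists for 262 of the 271 (96.7%), as for 97.2% of all IDR peaks; the IDR list was itself made from these lists. All 9 without one lacked it in replicate 1, and 7 of them were at tRNA genes. Spearman's rho of the ranks was 0.41 over 148 peaks at tRNA genes, 0.71 over 99 at snoRNA genes and 0.90 over 15 at snRNA genes, and 0.80 over all IDR peaks found in both; as descriptions, these also depend on the narrower range of tRNA signals. Of the 271 peaks, 186 were among the strongest 3838 of replicate 1 and 251 among those of replicate 2.

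The 3 largest rank differences were at tRNA genes. The peak at Y97E10C.t1 (tRNA-Thr) stood at rank 22419 in replicate 1 and 1806 in replicate 2. At R11.t1 (tRNA-Tyr) the ranks were 21915 and 2344, and at C48C5.t2 (tRNA-Ser) 23254 and 3527. The pair of peaks with 3 tRNA starts in reach were those at F22F1.t5 with F22F1.t4 and F22F1.t6 (signal 60.5, ranks 5953 and 4111) and at H08J11.t3 with H08J11.t2 and H08J11.t4 (56.8, ranks 18684 and 2885).

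**Figure D5:**
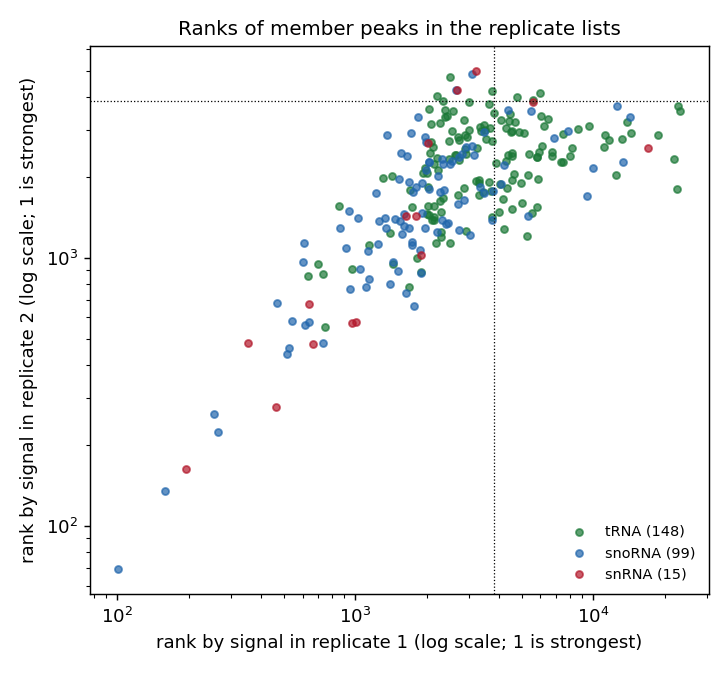
Rank by signal in replicate 1 (x) and replicate 2 (y) of the 262 peaks found in both lists, on log scales with 1 the strongest, coloured by kind of gene; dotted lines mark rank 3838. Strong snoRNA and snRNA peaks lie along the diagonal, and the points with ranks far beyond 3838 in replicate 1 are mostly tRNA peaks.

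Known promoter letters were counted around the summits. Within 50 bp of the summit, on either strand, box A letters (TGGCNNAG or TAGCNNAG) lay at 84 of the 271 peaks (31.0%), against 8.83% of all IDR peaks and 3.87% of windows of the same length 500 bp away on both sides. Box B letters (GTTCNANNC) lay at 72 peaks (26.6%), against 3.52% and 3.51%. All IDR peaks include the 271. Among the IDR peaks without such a gene in reach, box A lay at 7.15% and box B at 1.77%. Box A and box B are part of tRNA genes, so their presence near tRNA starts is a property of the genes themselves. At snoRNA summits box A was found in 23.0% and box B in 24%, against 3.50% and 1.5% of their flanking windows.

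E2F and CHR letters, known from promoters of DREAM targets, were counted in the same way. E2F letters (TTCCCGC or TTGGCGC or TTCGCGC or TTGCCGC) lay at 21 peaks (7.75%), against 13% of all IDR peaks and 3.51% of the flanking windows. CHR letters (TTTGAA or TTCGAA) lay at 13.3%, against 24.6% of all IDR peaks and 29.9% of the flanking windows. Among the IDR peaks without a tRNA, snoRNA or snRNA gene in reach, the shares were 13.4% for E2F and 25.5% for CHR. TTCGAA and the GTTCGAA form of box B overlap, and base composition differs between windows, as CHR letters are rich in A and T.

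In the 90 bases upstream of the start, on the strand of the gene, the box B letters were counted at snoRNA genes. They stood at 23 of 100 genes (23.0%) with a summit and 10 of 246 (4.07%) without, beside 1.32% and 1.26% of protein-coding genes with and without one. Read the other way, 23 of the 33 snoRNA genes with these letters had a summit (69.7%; 60.6% in replicate 1 alone and 69.7% in replicate 2 alone), against 24.6% of snoRNA genes without them. The summit lay within 50 bp of the letters at 20 of the 23. Most snoRNA summits lie in the 90 bases searched, so a short distance follows in part from the search itself.

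TGTCNG stood upstream of 14 of 18 snRNA genes with a summit (77.8%) and 65 of 111 without (58.6%). TGTCNG stood upstream of 25% of snoRNA genes with a summit and 13.4% without, and of 4.19% and 4.51% of protein-coding genes. At snRNA genes the median distance from summit to letters was 7 bp, with 13 of 14 within 50 bp, and at snoRNA genes it was 14 bp, with 19 of 25. These distances too follow in part from searching only the stretch where most summits lie, and no other letters were measured beside them. No site or factor is shown by such a match.

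Upstream base composition differed between tRNA and snoRNA genes with and without a summit, and little at snRNA genes. In the 100 bp before the start, median GC content was 47.0% at tRNA genes with a summit and 39.0% without. At snoRNA genes it was 54.0% and 41.0%, and at snRNA genes 52.5% and 51.0%. The part of base composition in the peaks was not tested.

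Genes for the proteins that work with these RNAs were also read, as the share with an IDR summit within 500 bp beside the 13.6% of protein-coding genes. Of 8 snoRNP genes 7 had one (87.5%; exact 95% interval 47.3 to 99.7%): fib-1 (fibrillarin, signal 534), nol-56 (460), nol-58 (1340, rank 69), snu-13 (335), dkc-1 (dyskerin, 442), garr-1 (200) and dao-5 (743). Of 24 genes listed for snRNPs and spliced leader RNPs, 14 had one (58.3%, exact 95% interval 36.6 to 77.9%). They were led by the Sm protein gene snr-6 (1622, rank 32), lsm-5 (866), snr-2 (733) and sna-2 (655). The others were snr-1, snr-3, snr-4, snr-5, snr-7, lsm-1, lsm-7, rnp-2, sna-3 and sut-2, from 101 to 359. All of these kept a summit with each replicate alone. Whether lsm-1 and sut-2 belong to these particles is doubtful, so the count of 14 holds for the list as drawn. Another protein-coding start lay within 500 bp of the summit at 4 of the 7 snoRNP genes (fib-1, nol-58, snu-13 and dkc-1). The same held at 8 of the 14 genes of the second list. Among them were lsm-1 and sna-3, which share the summit with the ribosomal protein genes rps-9 and rps-3. Which gene such a peak belongs to cannot be told apart. The peaks of nol-56 and snr-4 are those already described at K07C5.11 and C52E4.8.

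Genes of the transcription machinery and of tRNA processing were read in the same way. Of 7 SNAP complex genes 3 had a summit (42.9%; exact 95% interval 9.90 to 81.6%, which holds the background), snpc-1.1 (180), snpc-4 (176) and snpc-3.4 (494). Of 20 listed symbols for RNA polymerase III and its factors, 8 did not match the annotation, and of the other 12 genes 4 had one (33.3%; 9.92 to 65.1%, likewise): mafr-1 (473), the worm Maf1, a repressor of RNA polymerase III; rpc-1 (116), its largest subunit; tftc-1 (164), a TFIIIC subunit; and rpac-19 (121), a subunit shared with RNA polymerase I. Of 19 tRNA processing genes 4 had one (21.1%; 6.05 to 45.6%, likewise), pus-1 (264), tut-2 (89.3), xpo-3 (109) and popl-7 (102), of which xpo-3 had none in replicate 1 alone. Another protein-coding start was in reach of the same summit at snpc-1.1, tftc-1, pus-1, xpo-3 and popl-7.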

How the data were processed

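Each deposited peak list gives position, summit and the authors' signal value; lists exist for replicate 1, replicate 2, both pooled, and the IDR list, so calling was done both by replicate and after pooling. No source used here gives the aligner, the caller or the IDR threshold. The deposited signal has a different scale in each list. Read depth is unknown. Both replicates are biological per the labels.

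Gene records (Ensembl release 115, ce11) of biotype tRNA, snoRNA and snRNA were named through RefSeq, with all 1087 matched. Bound means that an IDR summit was 500 bp or less from the 5′ end; "replicate alone" means its strongest 3838 nuclear peaks. Python 3.11.15, pandas 2.3.3 and scipy 1.17.1 were used; the distance code was checked on simulated data. Symbols of the protein lists that did not match the annotation were left out: 8 for RNA polymerase III, 3 for the SNAP complex, 3 for tRNA processing, 1 for snoRNPs and 1 for snRNPs.

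The members, gene lists and letters were chosen with earlier results of these data known. Named genes were those nearest the 12 strongest peaks, the 5 strongest per kind, bound machinery genes, protein-coding genes sharing those peaks, the peaks with most starts and the 3 largest rank differences. Alternatives were windows of 250 and 1000 bp, each replicate alone, the stronger 1919 IDR peaks, only peaks without a protein-coding start, nearest start only, overlap with the gene body, other overlap rules and 100 bp for letters.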

Additional observations from a re-analysis of the deposited data

Results flagged for a closer look

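The list of replicate 1 held 26 peaks on the mitochondrial genome, which no result above uses. Their signal ran from 7.32 to 532, the strongest stood at rank 24 of that list, and all 22 mitochondrial tRNA genes had a summit within 500 bp. The lists of replicate 2, of both replicates pooled and of the IDR peaks held 0.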

How the results depend on the processing

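No paired analysis was possible because there was 1 group and no test. With each replicate alone, the number of peaks ran from 210 to 281, the share of all 3 kinds of gene with a summit from 20.3 to 27.5%, the share of peaks with a protein-coding start from 23.8 to 24.8%, the median rank from 2121 to 2173, the share upstream from 70.1 to 73.8%, and the share of genes with any peak from 50.4 to 62.2%. Over the same settings box A ran from 28.6 to 29.9%, box B from 21.4 to 26.7%, E2F from 6.41 to 7.62% and CHR from 13.2 to 17.1%; the last 5 were added after seeing the data. The stronger 1919 IDR peaks gave 110 peaks, 10.9% of genes (main value 26.8%), 32.7% with a protein-coding start, a median rank of 1320 and 86.4% upstream (71.6%). A 250 bp window gave 8.43% with a protein-coding start and a median rank of 2232. A 1000 bp window gave 32.9% of genes and 46.7% with a protein-coding start. Without peaks at protein-coding starts 20.6% of genes and a median rank of 2287 were left; nearest start only gave 2236, and overlap with the gene body 21.6% and 2310. Matching summits within 100 bp left 92.3% of peaks in both replicates, and the strongest lists only, 66.1%. The stronger part of the pooled list, 15000 peaks, gave 49.6% of genes (60.8%). With 100 bp on each side of the summit, box A rose to 40.6%, box B to 57.6%, E2F to 11.8% and CHR to 37.3%. The windows, lists and overlap rules are wider or narrower by construction; beyond that the cause was not tested. Unknown read depth limits what a missing peak can show.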
